A study of Mus musculus with 8 samples.

Results

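The comparison was between dendritic cells of Gata1 knock-out mice (KO) and of wild-type mice (WT), both treated with LPS. It rests on 4 of the 8 RNA-seq libraries of the series, 2 per genotype, called here KO 1, KO 2, WT 1 and WT 2. The other 4 libraries are cells of the same genotypes at steady state, without LPS. Their levels enter only where they are named. All 8 libraries enter the edgeR fit, so the p-values and standard errors also draw on the spread at steady state. The series' design text calls the libraries of a group biological replicates and does not say whether each came from a separate mouse or culture. The p-values thus measure the spread between libraries of a group, over all 8 libraries. The age and strain of the mice, the cells in which Gata1 was deleted, the source of the dendritic cells and the dose and length of the LPS treatment are not stated in the sources available here.

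Dendritic cells take up antigen, and when they sense a microbial product they mature: they raise costimulatory ligands, secrete cytokines and travel on the receptor CCR7 to lymph nodes, where they activate T cells. LPS, a lipopolysaccharide of the outer membrane of Gram-negative bacteria, starts this programme through toll-like receptor 4 and the NF-kB transcription factors. GATA1 is a transcription factor best known from red cells, megakaryocytes, mast cells and eosinophils, which binds DNA at the core letters GATA.

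Reads of Gata1 (chromosome X, 7959260 to 7976663 in GRCm38) numbered 0 and 0 in the KO libraries with LPS and 0 and 1 in the WT libraries. A count of 0 allows up to 0.178 CPM (reads of the gene in 1000000 counted reads; here 3 reads over the total of the KO group), and the WT level was 0.0417 CPM. With LPS the transcript was thus under the limit of detection in both genotypes, and these libraries do not check the genotype labels by it. At steady state the reads numbered 0 and 0 in KO and 1 and 10 in WT.

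The 4 libraries held 8889752, 8005151, 8488443 and 15495249 counted reads. Their spread within a genotype was wide. Over log2 CPM of all genes tested, the KO libraries correlated with r = 0.954 and the WT libraries with r = 0.910, while KO 2 and WT 1 correlated with 0.940. The median absolute log2 difference per gene was 0.503 between the KO libraries and 0.654 between the WT libraries. It was smaller across genotypes for KO 1 and WT 2 (0.433) and for KO 2 and WT 1 (0.466). For many genes the genotypes were thus no further apart than the libraries of one genotype. At steady state the median absolute log2 difference was 0.157 between the KO libraries and 0.277 between the WT libraries. These tighter pairs enter the same estimate of the spread. Markers of dendritic cells were present in all 4 libraries. The integrin Itgax (CD11c) was at 80.3 and 78.8 CPM in KO against 645 and 214 in WT, and the class II invariant chain Cd74 at 1835 and 4457 and 6676 and 4178.

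Of 23420 features, 12442 passed a filter on low counts and were tested. The genotypes differed with LPS in 96 of them (0.772%), of which 35 were higher in KO (0.281%) and 61 lower (0.49%). A gene is said here to have risen or fallen in KO, or to be called, only if its adjusted p was under 0.05 in edgeR's quasi-likelihood F test, with Benjamini-Hochberg adjustment over all genes tested. Fold changes are log2 of KO over WT, given ± the standard error. The median log2 difference was 2.20 over the called genes that were higher and -2.65 over those that were lower, against -0.01 over all genes tested. The genotypes did not overlap in any of the 96 called genes, which held for 36.1% of all genes tested (KO above in 18%, KO below in 18.1%). Counts of list members above or below WT in what follows are to be read beside these shares. At an unadjusted edgeR p under 0.05, 9.46% of all genes tested were lower in KO and 7.48% higher. The lists were chosen with earlier results of these data known, so their counts and medians are descriptions. In each of the 96 the nearest KO and WT libraries were more than 1 log2 unit apart. The call itself favours separated genes with a wide gap, so these counts are a description. With 2 libraries against 2, an exact permutation test of a single gene cannot go below p = 0.333.

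Within a genotype the libraries of the called genes lay close together. The test weighs the gap between genotypes against the spread within groups, so the call favours such genes and the counts here are a description. The WT libraries lay within 1 log2 unit of each other in 94 of the 96, the exceptions being Ccl17 and Ildr1, and in 68.2% of all genes tested. The KO libraries did so in 86 of the 96 and in 80.1% of all genes. DESeq2 called 1062 genes (8.54%), 432 higher (3.47%) and 630 lower (5.06%), and these held all 96. edgeR fitted to only the 4 libraries with LPS called 0, with 1044 genes at an unadjusted p under 0.05. Fits without WT 1 or without WT 2 left 1 WT library with LPS and called more genes in all. A call that a gene gained only in such a fit is thus a description of that fit. Without either KO library with LPS the count fell to 1, the histidine ammonia-lyase gene Hal, and all 96 genes kept their direction.

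**Figure D1:**
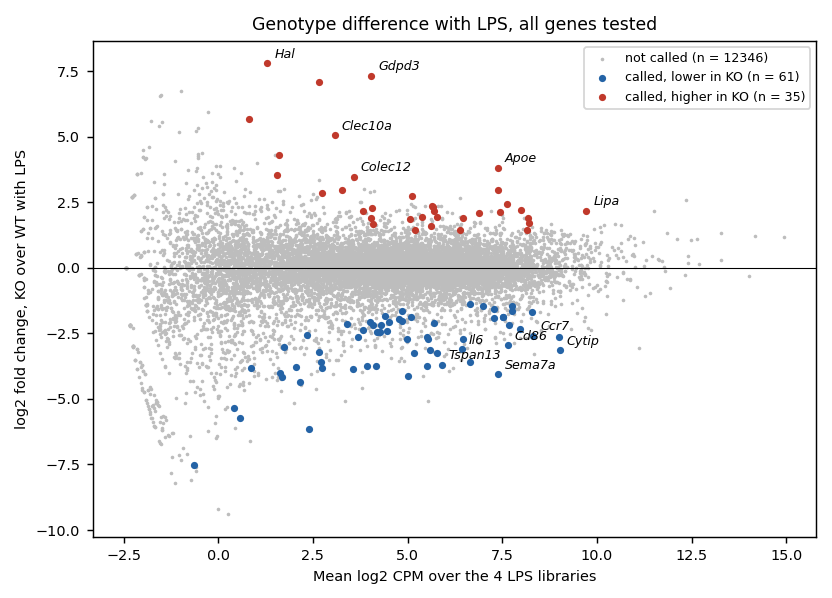
Log2 fold change of KO over WT with LPS (vertical axis) against the mean log2 CPM over the 4 libraries with LPS (horizontal axis), 1 point per gene tested. The 35 genes called higher (red) reach a log2 difference of 7.80 (Hal) and the 61 called lower (blue) lie below 0, among genes not called (grey).

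The ligands by which a dendritic cell instructs a T cell were mostly lower in KO. Of 17 tested costimulatory and checkpoint ligands, 2 fell and 0 rose. The KO libraries lay below the WT libraries in 11 and above in 1, and the median log2 difference was -1.47. DESeq2 called 9 lower and 1 higher. Cd86 (chromosome 16, 36568956 to 36666158), the ligand of CD28 and CTLA-4, stood at 78.8 and 64.8 CPM in the KO libraries and 598 and 520.0 in the WT libraries, a log2 difference of -2.96 ± 0.26 (edgeR adjusted p = 0.0138). The spread within each genotype was small beside the gap between them. Its levels at steady state were 67.2 and 82.1 CPM in KO against 111 and 110.4 in WT, so the KO libraries with LPS lay near the KO level at steady state and the WT libraries well above theirs. Cd70, the ligand of CD27, was scarce in KO, at 0.904 and 0.459 CPM, and stood at 15.6 and 9.59 in WT. Its log2 difference was -4.15 ± 0.57 (edgeR adjusted p = 0.0366), and the genotypes did not overlap. The ligands were not all low. The abundant PD-1 ligand Cd274 was at 1955 and 4059.7 CPM in KO against 3519.8 and 1391 in WT, with the genotypes overlapping (edgeR adjusted p = 0.846). The gene of the checkpoint protein VISTA, listed as 4632428N05Rik, was at 634 and 656 against 357 and 152 CPM, with KO above WT but short of the threshold (edgeR adjusted p = 0.153, or 0.0188 without WT 1). Without any 1 of the KO or steady-state libraries the calls of Cd86 and Cd70 were lost (edgeR adjusted p up to 0.130 and 0.153).

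March1 (now Marchf1; chromosome 8, 65618009 to 66472841), a ubiquitin ligase that takes MHC class II and CD86 proteins off the cell surface, moved the other way. It was at 322 and 176 CPM in KO against 54.9 and 61.9 in WT, and rose by log2 2.09 ± 0.33 (edgeR adjusted p = 0.0445). The KO libraries differed from each other more than the WT libraries did, and both lay above them. At steady state March1 was at 71.8 and 88.3 and 57.1 and 66.9 CPM. Its call was lost with upper-quartile scaling and without any 1 library other than WT 1 (edgeR adjusted p up to 0.128). It was the only member called of 18 MHC class II genes and regulators, of which 7 had KO below WT, 2 KO above and 9 overlapped (median log2 difference -0.43). H2-DMb2, a chain of the peptide-loading chaperone, was at 18.2 and 19.1 in KO and 46.0 and 37.7 CPM in WT, without overlap (edgeR adjusted p = 0.0887). The protease Ctss, which trims the invariant chain, was at 5299.9 and 7870.4 against 3769 and 2409 CPM, here with KO above WT (edgeR adjusted p = 0.255). The median of the class II list shrank to -0.14 without KO 1 and to -0.15 without WT 1, and was -0.82 without KO 2.

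The listed genes of mature, migrating dendritic cells were mostly lower in KO. Of 27 tested, 4 fell and 0 rose, 18 had both KO libraries below both WT libraries and 0 had them above. Their median log2 difference was -2.04, and DESeq2 called 16 lower and 0 higher. Averaged over the list, log2 CPM was 5.73 and 5.09 in KO and 6.65 and 7.63 in WT. Ccr7 (chromosome 11, 99144199 to 99155077), the receptor for CCL19 and CCL21, was at 159 and 106 CPM in KO against 599 and 992 in WT. The KO libraries thus held less than the lower WT library, and the log2 difference was -2.59 ± 0.40 (edgeR adjusted p = 0.0439). Ccl17 (chromosome 8, 94809380 to 94812038), a chemokine that attracts T cells through CCR4, was at 37.2 and 25.3 CPM in KO against 570.5 and 192 in WT. Although the WT libraries differed widely, the gap to KO was wider (-3.61 ± 0.54 (edgeR adjusted p = 0.0412)). The protease inhibitors Serpinb6b and Spint2 fell too. Serpinb6b was at 26.2 and 11.6 CPM in KO against 126 and 110.4 in WT (-2.63 ± 0.39 (edgeR adjusted p = 0.0412)). Spint2 was at 15.2 and 13.5 against 44.0 and 72.2 CPM (-2.02 ± 0.29 (edgeR adjusted p = 0.0405)). Neither overlapped between genotypes. Ccl22, another CCR4 ligand and the most abundant member, was at 1570.0 and 321 CPM in KO against 4056 and 11580.2 in WT. Both KO libraries lay below, but the libraries of a genotype differed by several fold and the test was not passed (edgeR adjusted p = 0.135). Tmem123, also abundant, showed the same at 616 and 274 against 959.8 and 2708 CPM (edgeR adjusted p = 0.149). Without WT 1 Ccl22 and Tmem123 were called (edgeR adjusted p = 0.0470 and 0.0307). The calls of Ccr7, Ccl17, Serpinb6b and Spint2 were lost without any 1 of the KO or steady-state libraries (edgeR adjusted p up to 0.185), and those of Ccr7 and Spint2 with upper-quartile scaling. WT 2 was the library in which the list was highest, and without it the median was -1.04.

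**Figure D2:**
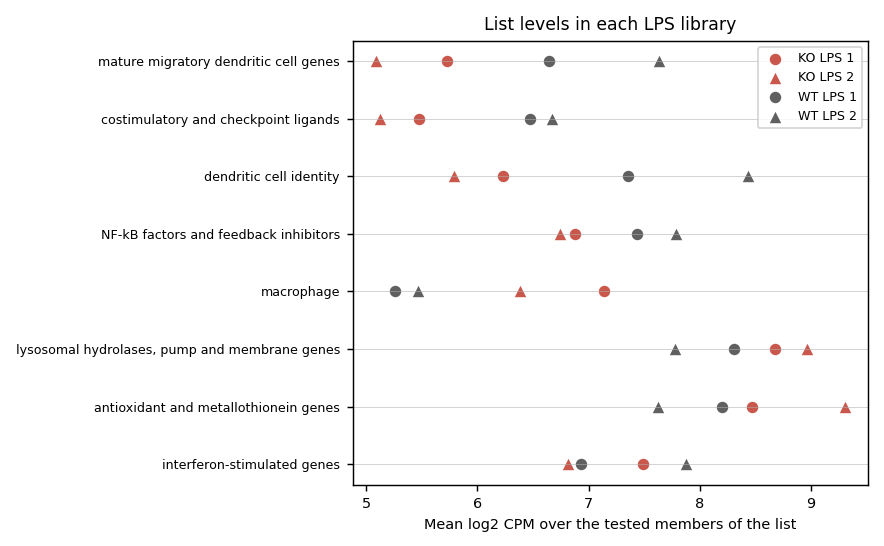
Mean log2 CPM over the tested members of 8 gene lists (horizontal axis) in each library with LPS, KO in red and WT in grey, circles for replicate 1 and triangles for replicate 2. KO lies below WT in the migratory, costimulatory, identity and NF-kB lists and above in the macrophage, lysosomal and antioxidant lists, while the genotypes overlap in the interferon-stimulated genes.

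Of 41 actin and motility genes, 3 fell and 0 rose, with 15 below, 7 above and 19 overlapping (median log2 difference -0.31). Over all genes tested 18.1% lay below and 18% above. The list median was -0.01 without WT 2, -0.57 without WT 1 and -0.53 without KO 1. Myo1g, a class I myosin of blood cells, was at 227 and 182 CPM in KO against 1303 and 1271 in WT. Its WT values nearly coincided, and the log2 difference was -2.65 ± 0.32 (edgeR adjusted p = 0.0314). Hip1r, which links clathrin-coated pits to actin, was at 5.99 and 3.67 CPM in KO against 63.3 and 68.2 in WT (-3.75 ± 0.38 (edgeR adjusted p = 0.0237)). Vil1, an actin-bundling protein of microvilli, was at 1.58 and 1.99 against 23.5 and 19.8 CPM (-3.60 ± 0.45 (edgeR adjusted p = 0.0315)). It was nearly absent at steady state, at 0.388 and 0.177 CPM in KO against 0.483 and 0.297 in WT. Neither Hip1r nor Vil1 overlapped between genotypes. Actb, the most abundant member, was at 2234 and 1487 in KO and 1977 and 5777 CPM in WT, and there the genotypes overlapped (edgeR adjusted p = 0.377, or 0.0470 without WT 1). The calls of the 3 genes that fell were lost without any 1 of the KO or steady-state libraries (edgeR adjusted p up to 0.152).

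The next called genes encode membrane and adaptor proteins of several families. Sema7a (chromosome 9, 57939596 to 57962865), a membrane-anchored semaphorin, was at 52.2 and 31.4 CPM in KO against 514 and 888 in WT. Every WT library exceeded the higher KO library by far, and the log2 difference was -4.07 ± 0.45 (edgeR adjusted p = 0.0283). It was the 1 called of 14 semaphorins, plexins and neuropilin-1. Of these it alone lay below WT, 4 lay above and 9 overlapped, while 36.1% of all genes tested did not overlap. The tetraspanin Tspan13 (chromosome 12, 36014555 to 36042478) stood at 15.2 and 17.8 CPM in KO against 199.6 and 228 in WT, and had the smallest adjusted p among the genes that fell, at a log2 difference of -3.70 ± 0.27 (edgeR adjusted p = 0.0102). At steady state it was at 45.1 and 51.0 CPM in KO against 56.2 and 76.3 in WT. It was the 1 called of 17 tetraspanins, of which 7 lay above WT and 2 below. The other one below was Tspan33, at 5.53 and 2.45 CPM in KO against 19.2 and 28.0 (edgeR adjusted p = 0.0522), which RLE scaling brought under the threshold (0.0487). Slamf1, a self-binding receptor of the SLAM family, was at 4.86 and 1.53 CPM in KO against 38.7 and 56.8 in WT (-3.87 ± 0.60 (edgeR adjusted p = 0.0442)), without overlap. It was the 1 called of 10 tested SLAM family genes, of which 3 lay below WT and 3 above. Cd84, another member, was at 362 and 330.4 CPM in KO against 166 and 111 in WT, which placed KO above (edgeR adjusted p = 0.0887). Without WT 1 Cd84 and Tspan33 were called (edgeR adjusted p = 0.0307 and 0.0199). Cytip, an adaptor that releases dendritic cells from T cells by acting on integrins, was abundant, at 264 and 105 CPM in KO against 1355 and 1887 in WT. The KO libraries differed from each other by more than the WT libraries did, and the gap to WT was larger still (-3.13 ± 0.51 (edgeR adjusted p = 0.0496)). Grasp (now Tamalin), a scaffold for membrane receptors, was at 7.46 and 7.96 against 166 and 102 CPM (-4.12 ± 0.48 (edgeR adjusted p = 0.0283)), without overlap. Tspan13 lost its call without either KO library with LPS and Grasp without any 1 of the KO libraries. Sema7a, Slamf1 and Cytip also lost theirs without either WT library at steady state, and Cytip without WT 2 (highest edgeR adjusted p per gene 0.117 to 0.159). Upper-quartile scaling ended the calls of Slamf1 and Cytip.

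**Figure D3:**
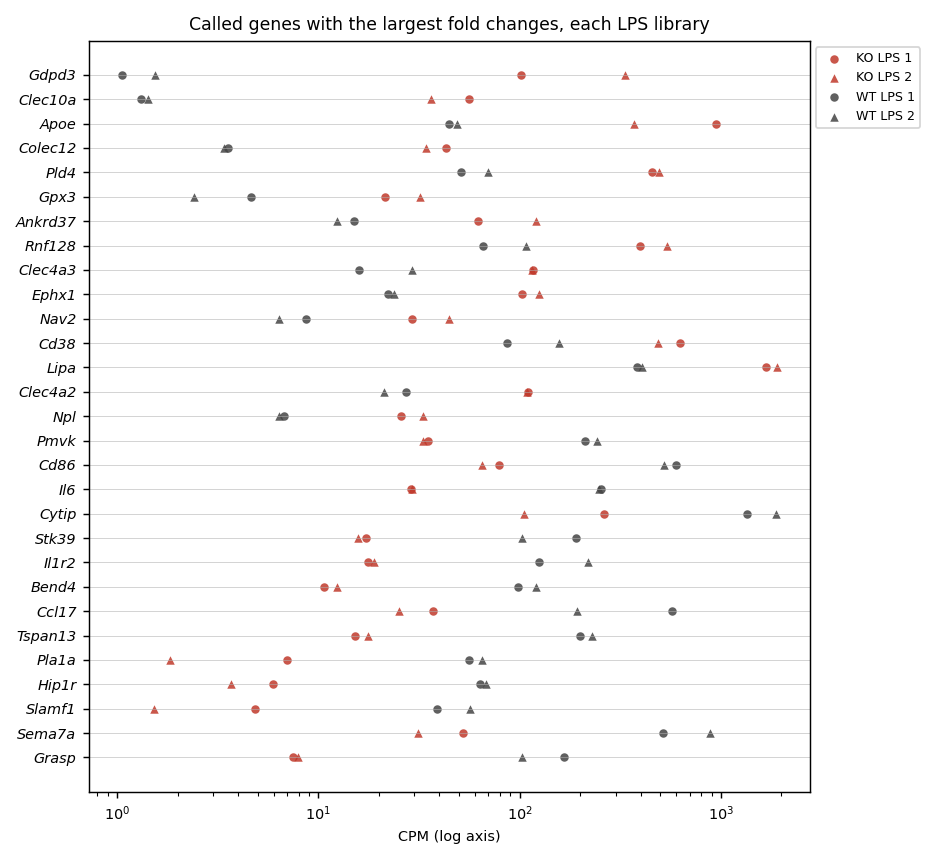
CPM on a log axis in each library with LPS (KO red, WT grey; circles replicate 1, triangles replicate 2) for called genes described in the text that are among the largest fold changes, ordered from the lowest to the highest fold. In every row both red symbols lie on one side of both grey symbols, as for Tspan13 (15.2 and 17.8 against 199.6 and 228 CPM) and Colec12 (43.3 and 34.1 against 3.57 and 3.40 CPM).

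Among LPS-induced cytokines, 2 of 18 fell, 7 lay below WT, 0 above and 11 overlapped (median log2 difference -0.71). Il6 (chromosome 5, 30013114 to 30019975), a cytokine of fever and of T and B cell help, was at 28.8 and 29.4 CPM in KO against 253 and 249.7 in WT. The libraries of each genotype agreed closely and the log2 difference was -3.11 ± 0.40 (edgeR adjusted p = 0.0344). At steady state it was at 9.85 and 11.1 CPM in KO against 11.5 and 27.4 in WT, so the KO libraries with LPS lay just above the highest library at steady state. Il15, which sustains memory CD8 T cells and NK cells, was at 20.3 and 14.9 CPM in KO against 58.5 and 72.4 in WT. Here the KO libraries with LPS lay under the KO libraries at steady state (40.6 and 42.1 CPM), and the log2 difference with LPS was -1.89 ± 0.25 (edgeR adjusted p = 0.0366). The most abundant members overlapped between genotypes. Vegfa was at 1064 and 2433 CPM in KO against 2906 and 948 in WT (edgeR adjusted p = 0.943), and the interleukin-1 antagonist Il1rn at 1291 and 2643 and 2385 and 627 (edgeR adjusted p = 0.828). In both genes KO 2 and WT 1 were the high libraries. Il15 lost its call without any 1 of the KO or steady-state libraries and Il6 without any 1 of the KO libraries (edgeR adjusted p up to 0.152). Without WT 1 the list median was -0.30.

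Of 22 tested chemokines the 1 called was Ccl17 (median log2 difference -0.54). Among the 22, 8 lay below WT, 4 above and 10 overlapped, beside 18.1% below and 18% above over all genes tested. DESeq2 called 7 lower and 1 higher. Ccl2, which draws monocytes through CCR2, had a log2 difference of -5.07 ± 1.01 (edgeR adjusted p = 0.0736), wider than that of Ccl17. It was at 4.63 and 14.4 CPM in KO against 501 and 133 in WT, without overlap, and it was called without WT 1 or WT 2 (edgeR adjusted p = 0.0452 and 0.0356). Ccl5, the most abundant chemokine, was at 10405 and 21220.2 in KO and 25792 and 13298 CPM in WT, and overlapped. The chemokine median rested on single libraries. It was -0.04 without WT 1 and -1.43 without KO 2.

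Cytokine and chemokine receptors did not move one way. Of 38, 14 lay above WT, 5 below and 19 overlapped, and 1 fell, the decoy interleukin-1 receptor Il1r2 (chromosome 1, 40084692 to 40125230). It was at 17.7 and 18.8 CPM in KO against 124 and 219 in WT. The KO libraries lay under every other library of the series, with 26.4 and 56.9 CPM at steady state in KO and 38.3 and 50.6 in WT, and the log2 difference with LPS was -3.23 ± 0.46 (edgeR adjusted p = 0.0399). Il4ra, the receptor chain for interleukins 4 and 13, was at 211 and 220.3 against 553 and 522 CPM, separated but short of the threshold (edgeR adjusted p = 0.068, or 0.0380 without WT 1). The abundant tumour necrosis factor receptor Tnfrsf1b was at 2754 and 3911 in KO and 2269 and 2571 CPM in WT, with KO above (edgeR adjusted p = 0.576). Outside this list, the chemokine receptors Ccr7 and Cxcr5 also fell (values with the migratory genes and among the last genes named). The list median was 0.13, and 0.35 without WT 2. Il1r2 lost its call without any 1 of the KO or steady-state libraries (edgeR adjusted p up to 0.166).

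No NF-kB factor or feedback inhibitor was called, but 16 of 21 had both KO libraries below both WT libraries and 2 above. Their median log2 difference was -0.98, 12 were lower at an unadjusted edgeR p under 0.05 (9.46% of all genes tested were) and 2 higher (7.48%), and DESeq2 called 7 lower and 0 higher. Nfkbia, which encodes the inhibitor that LPS signals degrade and then rebuild, was at 351 and 482 CPM in KO against 1400.2 and 729 in WT (edgeR adjusted p = 0.134). Traf1, an adaptor of TNF receptors and an NF-kB target, was at 205 and 213 against 419 and 933 CPM (edgeR adjusted p = 0.0957). The precursor subunit Nfkb1 was at 189 and 116 against 325 and 461 (edgeR adjusted p = 0.11) and the deubiquitinase Tnfaip3 (A20) at 305 and 471 against 673 and 768 (edgeR adjusted p = 0.275). All 4 genes had KO below WT. With 1 of the 4 libraries left out the list median ran from -0.95 to -0.66. Without WT 1 Traf1 and Nfkb1 were called (edgeR adjusted p = 0.0149 and 0.0464), and without WT 2 Nfkbia (0.0482).

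Of 48 transcription factors of myeloid and dendritic cells, 0 rose and 0 fell, 11 lay above WT and 13 below. edgeR called 0 over this list, against 11 lower and 6 higher at an unadjusted p under 0.05, and DESeq2 called 10 lower and 2 higher. Over all genes tested, 18% lay above WT and 18.1% below. At that unadjusted p 9.46% were lower and 7.48% higher, and DESeq2 called 5.06% lower and 3.47% higher. Batf3 and Irf8, which type 1 dendritic cells need, were near the threshold. Of 11 tested markers of type 1 dendritic cells edgeR called 0 (2 higher and 3 lower at an unadjusted p under 0.05, as in DESeq2's calls), and 3 lay above WT, 3 below and 5 overlapped (median log2 difference 0.45). That median was -0.11 without KO 1, 1.04 without KO 2, 0.04 without WT 1 and 0.61 without WT 2. Batf3 was at 18.1 and 9.03 CPM in KO against 70.1 and 50.2 in WT (-2.14 ± 0.37 (edgeR adjusted p = 0.0569)). Irf8 was at 568 and 266 against 2022 and 2292 CPM (-2.37 ± 0.42 (edgeR adjusted p = 0.0608)). Stat5a, which relays the growth factor GM-CSF, was at 56.7 and 77.8 against 324 and 188 CPM (-1.93 ± 0.33 (edgeR adjusted p = 0.0522)). Zbtb46, a marker of conventional dendritic cells, was at 12 and 4.90 against 44.3 and 50.5 CPM (-2.47 ± 0.46 (edgeR adjusted p = 0.0667)). KO lay below WT without overlap in all 4, and Id2, an abundant factor of the same lineage, overlapped at 657 and 1729 in KO and 1154 and 1076 CPM in WT. Without WT 1 all 4 were called (edgeR adjusted p = 0.0279 to 0.0369), and without WT 2 Batf3 and Stat5a (0.0394 and 0.0268).

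The promoter letters of the called genes were read because the deleted gene encodes a DNA-binding factor. RefSeq start sites of GRCm38.p6 gave the 250 bases before the start of 9289 of the genes tested, among them 28 of the 35 that rose and 45 of the 61 that fell. The GATA letters AGATAA or TGATAA, on either strand, were in 11.5% of all these promoters, in 3 of the 28 (10.7%; Cd38, Lyz1 and Naip6) and in 7 of the 45 (15.6%; Adgb, Bmyc, Ccl17, Il1r2, Il6, Slamf1 and Specc1l). The NF-kB letters GGG, any 3 letters, TTCC were in 6.28% of all, in 2 of the 28 and 2 of the 45. The AP-1 letters TGACTCA or TGAGTCA were in 4.24% of all, in 1 of the 28 and 3 of the 45. Letters of interferon response, GAAA, any 2 letters, GAAA, were in 3.36% of all, 0 of the 28 and 2 of the 45. A match of letters is a description and not a site of binding, and binding was not measured in these libraries. The promoters of 4 genes that fell and hold GATA letters, and of Gdpd3, which rose by the largest fold among the rule-named genes and holds none of the letters searched, are shown 5′ to 3′ on the strand of the gene, ending at the last base before the start of the transcript that RefSeq's table uses, which in Ccl17, Il1r2 and, by 1 base, Slamf1 lies inside the outer bounds of the gene. They lie on the plus strand of GRCm38.p6 at chr5:30012864-30013113 (Il6), chr8:94810203-94810452 (Ccl17), chr1:40085843-40086092 (Il1r2), chr1:171766882-171767131 (Slamf1) and chr7:126766164-126766413 (Gdpd3). Capitals mark the letters found: GATA letters in the first 4, and in Il6 also the AP-1 letters near the 5′ end and the NF-kB letters close to the start.
Il6: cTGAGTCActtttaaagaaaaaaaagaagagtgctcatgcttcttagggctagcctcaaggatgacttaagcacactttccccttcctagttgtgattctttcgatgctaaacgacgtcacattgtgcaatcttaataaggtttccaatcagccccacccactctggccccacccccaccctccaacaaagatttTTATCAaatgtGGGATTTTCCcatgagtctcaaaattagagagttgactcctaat
Ccl17: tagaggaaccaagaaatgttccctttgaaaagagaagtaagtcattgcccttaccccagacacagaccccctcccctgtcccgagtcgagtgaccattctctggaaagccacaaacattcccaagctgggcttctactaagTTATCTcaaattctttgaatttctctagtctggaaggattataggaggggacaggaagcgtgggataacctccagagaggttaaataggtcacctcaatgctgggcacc
Il1r2: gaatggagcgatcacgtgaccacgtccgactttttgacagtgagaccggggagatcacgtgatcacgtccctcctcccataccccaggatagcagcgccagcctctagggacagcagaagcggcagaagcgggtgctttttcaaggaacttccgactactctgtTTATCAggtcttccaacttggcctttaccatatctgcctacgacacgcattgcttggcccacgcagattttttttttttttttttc
Slamf1: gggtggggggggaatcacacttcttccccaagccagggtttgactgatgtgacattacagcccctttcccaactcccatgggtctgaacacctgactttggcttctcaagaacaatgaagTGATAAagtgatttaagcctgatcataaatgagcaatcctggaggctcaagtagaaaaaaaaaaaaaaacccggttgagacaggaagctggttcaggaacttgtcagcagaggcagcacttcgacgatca
Gdpd3: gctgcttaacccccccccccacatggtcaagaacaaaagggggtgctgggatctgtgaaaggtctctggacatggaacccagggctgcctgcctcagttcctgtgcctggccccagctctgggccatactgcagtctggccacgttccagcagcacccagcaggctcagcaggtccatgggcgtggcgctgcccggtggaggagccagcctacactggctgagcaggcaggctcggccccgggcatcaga
In Il6 the GATA letters begin 55 bases and the NF-kB letters 44 bases before the start. They begin 109 bases before it in Ccl17, 86 in Il1r2 and 130 in Slamf1. These 4 genes were picked from those that fell, so that both KO libraries with LPS lay below both WT libraries (values above) follows from the choice. Cd38, Lyz1 and Naip6, which hold the same letters, rose.

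Lectin receptors, which bind sugars of microbes and of the body's own glycoproteins, had the most genes called higher of the 44 lists examined. Of 23 tested C-type lectin receptors 4 rose and 0 fell, 12 lay above WT and 2 below, and the median log2 difference was 1.11. Clec10a (MGL1), a receptor for galactose-type sugars, was at 56.1 and 36.4 CPM in KO against 1.32 and 1.42 in WT. At steady state it stood at 99.8 and 76.9 CPM in KO against 61.8 and 18.8 in WT, so the KO libraries with LPS lay within the steady-state range and the WT libraries below it. Its log2 difference with LPS was 5.06 ± 0.64 (edgeR adjusted p = 0.0342). Colec12, a scavenger receptor with a lectin domain, was at 43.3 and 34.1 CPM in KO against 3.57 and 3.40 in WT (3.47 ± 0.29 (edgeR adjusted p = 0.0138)). The pairs of values were close within each genotype. Clec4a2, an inhibitory receptor, and Clec4a3 are related genes, and how reads that match both were counted is not stated in the labels. Clec4a2 was at 110.0 and 108 CPM in KO against 27.2 and 21.3 in WT (2.17 ± 0.24 (edgeR adjusted p = 0.0283)), and Clec4a3 at 117 and 116 against 16 and 29.1 (2.36 ± 0.37 (edgeR adjusted p = 0.0445)). Neither overlapped. The abundant receptors Clec4n (dectin-2) and Clec4d were also higher, at 1332 and 1959 against 651 and 512 CPM (edgeR adjusted p = 0.0887) and 1281 and 2403 against 912 and 527 (edgeR adjusted p = 0.221), without being called. Colec12 lost its call without any 1 of the KO libraries, Clec10a without these or WT 2, and Clec4a2 and Clec4a3 without any 1 of the KO or steady-state libraries (edgeR adjusted p up to 0.164). Upper-quartile scaling ended the call of Clec4a3.

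The wider set of uptake receptors leaned the same way with no calls. Of 24 scavenger and apoptotic cell receptors 9 lay above WT and 1 below (median log2 difference 0.88), and DESeq2 called 5 higher and 0 lower. Of 11 complement genes 8 lay above and 1 below (median 1.23), DESeq2 calling 6 higher and 1 lower. edgeR called 0 in both lists, with 8 and 6 genes higher and 1 and 1 lower at an unadjusted p under 0.05. The signalling adaptor Tyrobp (DAP12) was at 733 and 751 CPM in KO against 379 and 183 in WT (edgeR adjusted p = 0.135). Itgam, the alpha chain of complement receptor 3, was at 1059.9 and 798 against 396 and 396 CPM (edgeR adjusted p = 0.11), and complement C3 at 2286 and 1678 against 1149 and 1196 (edgeR adjusted p = 0.304). In these 3 genes KO lay above WT. The 1 complement gene with KO below was Itgax, given above (edgeR adjusted p = 0.0887, or 0.0268 without WT 2). Tyrobp was called without WT 1 (edgeR adjusted p = 0.0268). Leaving out KO 1 lowered the medians to 0.47 and 0.63.

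The listed markers of macrophages were higher in KO or overlapped, and those of dendritic cell identity were lower or overlapped. Of 23 macrophage markers 2 rose, Apoe and Lyz1, and 13 lay above WT, 0 below and 10 overlapped (median log2 difference 1.51). Summed over the list the level was 28907 and 26301 CPM in KO against 14114 and 6880.4 in WT. Of 14 identity markers of dendritic cells, 1 fell, Ccr7, and 11 lay below WT, 0 above and 3 overlapped (median -2.28). Their sum was 4717 and 8599 CPM in KO against 13329 and 14872 in WT. The identity list shares Ccr7 and Fscn1 with the migratory genes and Cd83 with the ligands. It also shares Relb with the NF-kB list, Itgax with the complement list, and Cd74, H2-Ab1 and Ciita with the class II list. It is thus not independent of those lists. At steady state the median log2 difference was 0.03 for the macrophage list and -0.20 for the identity list. In bulk libraries fewer cells of a type and less RNA per cell cannot be told apart. Apoe (chromosome 7, 19696244 to 19701310), a lipid carrier, was at 947 and 372 CPM in KO against 44.4 and 48.9 in WT. The KO libraries differed from each other and both were far above WT (3.82 ± 0.57 (edgeR adjusted p = 0.0412)). At steady state Apoe was at 6597 and 6303 CPM in KO against 5776 and 3319 in WT, above all 4 libraries with LPS. The lysozyme genes Lyz1 and Lyz2 are near-identical and can share reads. Lyz1 was at 24.1 and 11.8 against 2.91 and 2.10 CPM (2.86 ± 0.44 (edgeR adjusted p = 0.0412)) and the far more abundant Lyz2 at 16039 and 10001 against 2256 and 2057 (edgeR adjusted p = 0.0583), both with KO above. The transmembrane glycoprotein Gpnmb overlapped, at 5500.4 and 8428 in KO and 7761 and 2356 CPM in WT. Cst3, an identity marker that inhibits cathepsins, was at 984 and 1206 CPM in KO against 1982 and 3176 in WT, separated with KO below (edgeR adjusted p = 0.153). Cst3 and Lyz2 were called without WT 1 (edgeR adjusted p = 0.0442 and 0.0325). Among 14 markers of type 2 and monocyte-derived dendritic cells, 2 rose, Clec10a and Clec4a2, and 9 lay above WT and 0 below. The calls of Apoe and Lyz1 were kept without WT 1 and lost without each of the other 7 libraries in turn (edgeR adjusted p up to 0.128 in both). Without WT 2 the macrophage median was 2.35 and the identity median -1.04, and without KO 1 they were 1.10 and -2.60.

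**Figure D4:**
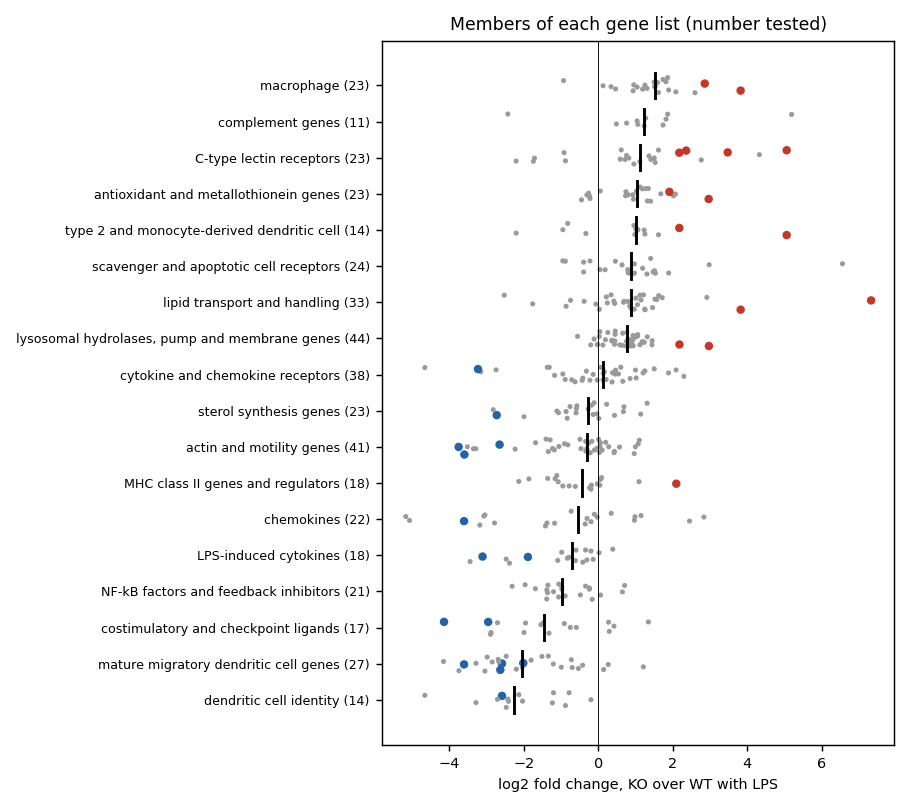
Log2 fold change of KO over WT with LPS (horizontal axis) for the tested members of 18 gene lists, 1 point per member, with the list's median as a black bar and called genes in red (higher) or blue (lower). The medians run from -2.28 for dendritic cell identity and -2.04 for mature migratory genes to 1.23 for complement genes and 1.51 for macrophage markers.

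Genes of the lysosome, the compartment where taken-up material is broken down, were higher in KO or overlapped. Of 44 tested, 2 rose and 0 fell, 25 lay above WT and 0 below, and the median log2 difference was 0.78. DESeq2 called 11 higher and 0 lower. The mean log2 CPM of the list was 8.68 and 8.97 in KO and 8.31 and 7.78 in WT. Lipa (chromosome 19, 34492316 to 34527474), the lysosomal acid lipase, was at 1670.0 and 1899.5 CPM in KO against 384 and 406 in WT. Its values nearly coincided within each genotype and the log2 difference was 2.18 ± 0.32 (edgeR adjusted p = 0.0412). Pld4 (chromosome 12, 112760446 to 112768986), a nuclease that degrades single-stranded nucleic acid in endosomes and lysosomes, was at 455 and 491 CPM in KO against 51.4 and 69.4 in WT (2.97 ± 0.32 (edgeR adjusted p = 0.0283)). At steady state it was at 528 and 507 CPM in KO against 359 and 247 in WT, so only the WT libraries with LPS stood apart from that range. The abundant saposin precursor Psap was at 25257 and 31239 CPM in KO against 13176 and 11076 in WT (edgeR adjusted p = 0.258), and cathepsin D (Ctsd) at 11203 and 21897 against 8950.4 and 4379 (edgeR adjusted p = 0.287). KO lay above WT in both, with no overlap. The calls of Lipa and Pld4 were lost without any 1 of the KO or steady-state libraries (edgeR adjusted p up to 0.152), and the list median was 0.47 without WT 2.

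Lipid handling genes leaned the same way. Of 33 tested genes 2 rose, Apoe and Gdpd3, and 0 fell, while 15 lay above WT and 2 below (median log2 difference 0.86). Gdpd3 (chromosome 7, 126766414 to 126775645), a phosphodiesterase that acts on lysophospholipids, was at 102 and 333 CPM in KO against 1.06 and 1.55 in WT. The KO libraries differed from each other, but both exceeded WT by a wide margin (7.32 ± 0.84 (edgeR adjusted p = 0.0283)). At steady state KO also lay above WT, at 60.4 and 164 CPM against 5.22 and 4.24. Acsl1, which activates fatty acids and is raised by LPS, was at 2111 and 1982 CPM in KO against 578 and 754 in WT. Against its steady-state levels of 47.6 and 59.2 and 39.8 and 50.8 CPM it was far higher in both genotypes, and with LPS KO lay above WT (edgeR adjusted p = 0.068). Pla2g7, a phospholipase that clears oxidised phospholipids, was at 2678 and 3083 against 1436 and 1053 CPM, also separated (edgeR adjusted p = 0.125). The call of Gdpd3 was lost without any 1 of the KO or steady-state libraries (edgeR adjusted p up to 0.118).

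Antioxidant and metallothionein genes showed 16 of 23 with KO above WT and 0 below (median log2 difference 1.02), and 2 rose, Gsr and Gpx3. Gsr, glutathione reductase, was at 617 and 521 CPM in KO against 129 and 175 in WT. KO stood alone, since the WT values lay near the steady-state levels of 149.8 and 178 in KO and 149 and 150.4 in WT, and the log2 difference with LPS was 1.91 ± 0.27 (edgeR adjusted p = 0.0405). Gpx3, a secreted glutathione peroxidase, was at 21.3 and 32.2 CPM in KO against 4.63 and 2.41 in WT (2.96 ± 0.40 (edgeR adjusted p = 0.0366)). Its order was the opposite at steady state, at 57.3 and 53.0 CPM in KO against 134 and 91.8 in WT, without overlap in either condition. The ferritin chains Fth1 and Ftl1, the most abundant members, had KO above WT by a narrow margin. Fth1 was at 36714 and 67984 CPM in KO against 35756 and 10497 in WT (edgeR adjusted p = 0.439), and Ftl1 at 6717 and 13546 against 6653 and 2670.2 (edgeR adjusted p = 0.37). The list median rested in part on KO 2, without which it was 0.62, and was 0.70 without WT 2. The calls of Gsr and Gpx3 were lost without any 1 of the KO or steady-state libraries (highest edgeR adjusted p per gene 0.149 to 0.152).

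Other enzymes and regulators among the largest folds rose as well. Ephx1, an epoxide hydrolase, was at 103 and 125 CPM in KO against 22.1 and 23.8 in WT (2.31 ± 0.27 (edgeR adjusted p = 0.0283)). Cd38, which breaks down NAD, was at 627 and 488 CPM in KO against 86.8 and 156 in WT (2.20 ± 0.34 (edgeR adjusted p = 0.0445)). Both genotypes had far less Cd38 at steady state, at 34.4 and 36.0 and 41.0 and 32.9 CPM. Rnf128 (GRAIL), a ubiquitin ligase, was at 395 and 539 against 65.6 and 108 CPM (2.43 ± 0.33 (edgeR adjusted p = 0.0366)), and Ankrd37, a target of the hypoxia factor HIF-1, at 62.5 and 121 against 15.1 and 12.4 (2.75 ± 0.40 (edgeR adjusted p = 0.0411)). Nav2 was at 29.3 and 44.6 against 8.73 and 6.37 CPM (2.30 ± 0.33 (edgeR adjusted p = 0.0405)). The genotypes were separated in all 5 genes. Of the genes that fell by large folds outside the lists, the kinase Stk39 was at 17.3 and 15.8 CPM in KO against 190.2 and 103 in WT (-3.15 ± 0.33 (edgeR adjusted p = 0.0283)), the phospholipase Pla1a at 7.0 and 1.84 against 56.3 and 65.0 (-3.75 ± 0.57 (edgeR adjusted p = 0.0412)), and Bend4 at 10.7 and 12.4 against 98.8 and 121 (-3.25 ± 0.48 (edgeR adjusted p = 0.0412)), none with overlap. Hif1a itself was at 1000.4 and 846 CPM in KO against 433 and 342 in WT, separated with KO above but short of the threshold (edgeR adjusted p = 0.091, or 0.0485 without WT 1). Of 25 glycolysis and hypoxia-response genes 0 rose and 0 fell, with 13 above WT and 2 below (median log2 difference 0.63, or 1.31 without WT 1). The edgeR count of 0 in that list stands beside 8 higher and 1 lower at an unadjusted p under 0.05, and DESeq2 called 5 and 0. Ankrd37 and Nav2 kept their calls without WT 1 and lost them without each of the other 7 libraries, Bend4 lost its call without any 1 of the KO libraries, and Ephx1, Cd38, Rnf128, Stk39 and Pla1a lost theirs without any 1 of the KO or steady-state libraries (highest edgeR adjusted p per gene 0.142 to 0.17). Upper-quartile scaling ended the calls of Cd38 and Pla1a.

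In sterol synthesis the 1 gene that fell was Pmvk (chromosome 3, 89454541 to 89469014), phosphomevalonate kinase. It was at 35 and 33.2 CPM in KO against 211 and 242 in WT, values that nearly coincided within each genotype, and the log2 difference was -2.73 ± 0.23 (edgeR adjusted p = 0.0138). At steady state it was at 48.9 and 45.8 and 70.4 and 84.5 CPM. The pathway as a whole did not follow it evenly: of 23 genes 10 lay below WT, 4 above and 9 overlapped (median log2 difference -0.27, or -0.63 without KO 1, -0.10 without WT 1 and -0.41 without WT 2). The regulator Srebf2 was at 108 and 124 CPM in KO against 271 and 217 in WT, separated with KO below (edgeR adjusted p = 0.0922), and the desaturase Scd2 overlapped at 578 and 205 and 207 and 149. Pmvk lost its call without any 1 of the KO libraries (edgeR adjusted p up to 0.121).

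The title of the series names polysialic acid and the chemokine CCL21. St8sia4, the enzyme that builds polysialic acid in immune cells, was at 287 and 134 CPM in KO against 138 and 460.3 in WT. The lowest and the highest of the 4 libraries were KO 2 and WT 2, and KO 1 lay between the WT libraries, so the genotypes overlapped (edgeR adjusted p = 0.732). The difference was -0.51 and turned to 0.62 without WT 2. Nrp2, a co-receptor that can carry polysialic acid, was at 728 and 623 CPM in KO against 115 and 355 in WT, separated with KO above (edgeR adjusted p = 0.198). Nrp2 was called without WT 2 (edgeR adjusted p = 0.0356). Npl, which breaks down free sialic acid, was the 1 called of 18 genes of sialic acid synthesis, transport and breakdown, at 25.9 and 33.1 CPM in KO against 6.74 and 6.37 in WT (2.17 ± 0.32 (edgeR adjusted p = 0.0411)), without overlap. The call held without WT 1 and was lost without any of the other 7 libraries (edgeR adjusted p up to 0.153).

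Interferon-stimulated genes, the second arm of the LPS response, mostly overlapped. edgeR called 0 of 43, with 4 lower and 1 higher at an unadjusted p under 0.05, and DESeq2 called 2 lower and 0 higher. Over all genes tested, 9.46% were lower and 7.48% higher at that p, and DESeq2 called 5.06% lower and 3.47% higher. The counts of lower genes were thus near these shares. The genotypes overlapped in 36 of them, while 36.1% of all genes tested did not overlap. The median log2 difference of the list was -0.09. The mean log2 CPM of the list was 7.49 and 6.81 in KO and 6.93 and 7.88 in WT, with KO 1 between the WT libraries and KO 2 below both. Irf7, the factor that amplifies type I interferon, was at 1253 and 2262 CPM in KO against 1439.6 and 1047 in WT, and the antiviral enzyme Rsad2 at 672 and 1427 and 1806 and 1279, both with overlap. At steady state Irf7 was at 12.6 and 19.0 CPM in KO against 25.7 and 12.1 in WT, far under the levels with LPS in both genotypes. Gbp2, a guanylate-binding protein, was one of the 5 with KO below WT, at 161 and 62.0 against 413 and 543 CPM (edgeR adjusted p = 0.0866, or 0.0425 without WT 1). The list median changed sign with the library left out. It was -0.52 without KO 1, 0.03 without KO 2, -0.43 without WT 1 and 0.27 without WT 2. Of 22 receptors and adaptors that sense LPS, 5 lay above WT, 3 below and 14 overlapped. These counts were near the shares over all genes tested (18% above and 18.1% below). edgeR called 0 of the 22. At an unadjusted edgeR p under 0.05, 2 were higher and 2 lower (7.48% and 9.46% of all genes tested). DESeq2 called 2 higher and 1 lower (3.47% and 5.06% of all genes tested). The co-receptor Cd14 was at 1199 and 1552 CPM in KO against 2455 and 1017 in WT, with overlap. Of the adaptors of the TRIF branch, Ticam1 was at 32.2 and 42.3 CPM in KO against 101 and 68.9 in WT (edgeR adjusted p = 0.0988) and Ticam2 at 149 and 172 against 76.3 and 75.0 (edgeR adjusted p = 0.0982). They were separated in opposite directions, Ticam1 with KO below and Ticam2 with KO above.

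The genotype difference of the called genes was compared with that at steady state. Of the 61 genes that fell with LPS all 61 had a difference of the same sign at steady state (50.7% of all genes tested were below 0 there), and in 50 the steady-state libraries were separated in that direction (23.4% of all genes). Of the 35 that rose, 27 had the same sign (49.1% of all genes) and 21 were separated (22.1%). The median log2 difference at steady state was -0.60 for those that fell and 0.44 for those that rose, against -2.65 and 2.20 with LPS, and it was smaller in size than with LPS in all 96. edgeR called 0 genes between genotypes at steady state (0%). Whether a genotype difference changed with LPS was tested by the interaction term. Its adjusted p was under 0.05 for 0 of 12442 genes (0%), and 797 (6.41%) passed at an unadjusted p under 0.05, among them 89 of the 96. DESeq2 called 113 genes by the same term and edgeR 3 with no filter on low counts. The 96 were chosen by their difference with LPS, and such a choice favours a smaller difference at steady state. The count of 89, the medians and the smaller size in all 96 are thus descriptions. The steady-state libraries also enter the estimate of the spread, so the call favours genes whose steady-state pairs lie close together. The counts of genes separated at steady state are thus descriptions too. On the log2 scale, the interaction of Cd86 was -2.39 ± 0.35 (edgeR unadjusted p = 0.000201, adjusted p = 0.416). That of Gpx3 was 3.99 ± 0.54 (edgeR unadjusted p = 0.000113, adjusted p = 0.377). That of Tspan13 was -3.23 ± 0.35 (edgeR unadjusted p = 2.71e-05, adjusted p = 0.337). These genes are among the 96, so the choice favours a small unadjusted p here too.

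**Figure D5:**
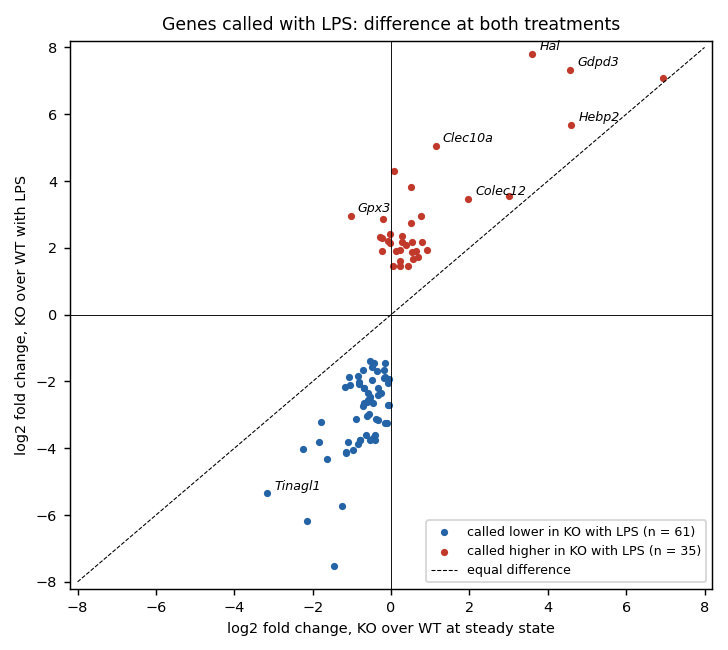
Log2 fold change of KO over WT with LPS (vertical axis) against the same at steady state (horizontal axis) for the 96 called genes, 61 lower (blue) and 35 higher (red), with equal difference as a dashed line. Every point lies nearer to 0 on the horizontal than on the vertical axis, which the choice of genes by their difference with LPS favours. Gpx3 is among the 8 that change sign.

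The genes that follow were chosen after their values were seen. Hal, which opens the breakdown of histidine, had the highest fold of all called genes and was called with any 1 library left out. It was at 25.0 and 18.4 CPM in KO against 0.132 and 0.0619 in WT with LPS, and at 41.0 and 34.9 and 3.28 and 2.97 at steady state. KO lay above WT under both conditions, by log2 3.6 ± 0.33 at steady state and 7.80 ± 0.48 (edgeR adjusted p = 0.00548) with LPS. The WT libraries with LPS held 1 and 1 reads of Hal, under the limit of 3 reads, so the size of that fold is uncertain. Hebp2, a heme-binding protein, was at 11.3 and 6.89 CPM in KO against 0.132 and 0.186 in WT, and at 29.8 and 20.3 and 1.26 and 0.818 at steady state. Lyplal1, a lysophospholipase-like protein, was at 11.2 and 7.50 against 0.529 and 0.990 CPM, and at 9.54 and 10.7 against 1.06 and 1.41 at steady state. These 3 genes and Gdpd3 were separated by genotype in both conditions. Of immune signalling genes outside the lists, Fyn, a Src-family kinase, was at 23.9 and 13.3 CPM in KO against 98.7 and 146 in WT (-2.71 ± 0.35 (edgeR adjusted p = 0.0344)), and Cxcr5, the receptor for CXCL13, at 2.03 and 1.38 against 17.5 and 31.6 (-3.83 ± 0.61 (edgeR adjusted p = 0.0445)). Prkcb, a protein kinase C, rose, at 593 and 489 against 172 and 155 CPM (1.72 ± 0.26 (edgeR adjusted p = 0.0412)). Tifa, an adaptor that activates NF-kB, rose too, at 151 and 123 against 50.5 and 49.9 CPM (1.44 ± 0.23 (edgeR adjusted p = 0.0453)). Among metabolic enzymes the heparan-cleaving Hpse was at 176 and 167 against 50.0 and 41.9 CPM (1.90 ± 0.24 (edgeR adjusted p = 0.0315)), the glycogen branching enzyme Gbe1 at 79.2 and 82.1 against 22.9 and 19.1 (1.94 ± 0.23 (edgeR adjusted p = 0.0283)), and malate dehydrogenase Mdh1, which fell, at 135 and 128 against 371 and 351 (-1.46 ± 0.24 (edgeR adjusted p = 0.0496)). Itga3, an integrin chain for laminin, had 0 reads in both KO libraries and 13 and 40 in the WT libraries. Set against the limit of 3 reads over the KO group, it was at least 11.5-fold lower in KO. All of these genes were separated. All but Hal lost their calls without any 1 of the KO or steady-state libraries. Cxcr5, Prkcb, Tifa and Itga3 lost theirs without WT 2 as well. Upper-quartile scaling ended the calls of Cxcr5, Tifa and Mdh1.

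Markers of other cell types were summed in each library. Mast cell and basophil markers were at 21.0 and 40.3 CPM in KO against 279.8 and 129 in WT, with 0 of 6 tested called, and their Hdc, the enzyme that makes histamine, was at 1.13 and 3.37 CPM in KO against 130.4 and 17.8 in WT (edgeR adjusted p = 0.0887, or 0.0268 without WT 2). Neutrophil markers were at 2920.2 and 3316 CPM in KO against 2744 and 1292 in WT, B cell markers at 47.7 and 36.3 CPM in KO against 19.0 and 11.9 in WT, and T and NK cell markers at 4.29 and 11.2 CPM in KO against 8.73 and 5.51 in WT. The globin genes Hba-a1 and Hba-a2 of red cells, Siglech of plasmacytoid dendritic cells and Gzma of killer cells had 0 reads in all 4 libraries. The mast cell and basophil sums were lower in KO, the B cell sums higher and the neutrophil sums higher by a narrow margin over WT 1. Much of the B cell sum was Cd22, at 44.2 and 33.1 CPM in KO against 16.7 and 5.32 in WT, without overlap (edgeR adjusted p = 0.140). Of 6 tested B cell markers 2 had a fold change above 0 and 4 below (median log2 difference -1.58). Of 11 mast cell and basophil genes, 7 had fewer than 10 reads in every library with LPS. The part of these other cells in the genotype differences above was not tested.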

How the data were processed

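The series holds 8 RNA-seq libraries of mouse dendritic cells, 4 of them with LPS. The library kit (TruSeq RNA v2, per the labels' protocols) does not mark strand. The authors deposited raw read counts per gene. Build mm10, Subread 1.4.3, featureCounts, edgeR 3.6.8 and TopHat2 2.0.8 are listed in the submitters' processing notes. The treatment of reads matching several genes is not stated.

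Genes passing edgeR's filterByExpr (minimum count 10, minimum total 15) were fitted in edgeR 4.0.16 (R 4.3.3) with TMM scaling and 1 coefficient per group over all 8 libraries (4 residual and 3.40 prior degrees of freedom). Tests were two-sided, and an SE is the log2 fold change over the square root of F. Library sizes were 8005151 to 15495249 reads, and floors cover counting error only. CPM use TMM-scaled sizes, except for Gata1. Coordinates and promoters are RefSeq's (GRCm38.p6).

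The comparison, members and gene lists were chosen with earlier results of these data known. Named were Gata1, St8sia4, Ccr7 and Nrp2, the 15 highest and 15 lowest folds among called genes whose mean log2 CPM reached 3 (Gm and Rik symbols left out), called list members, and up to 2 members per list by mean CPM and 2 by p. Of the last kind only a part is printed, and 1 gene of the others is not reported here. Alternatives were RLE and upper-quartile factors, 2 other filters, DESeq2 1.42.0, the LPS libraries alone, a replicate block and leaving out each library. A library left out leaves its group with 1, assumed to vary like the others.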

Additional observations from a re-analysis of the deposited data

How the results depend on the processing

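The count of 96 genes, 35 higher and 61 lower, was 104 with RLE factors, 74 with upper-quartile factors and 96 with a filter of CPM of at least 1 in 2 libraries. With no filter it was 162 higher and 376 lower, with DESeq2 432 and 630, with DESeq2 without independent filtering 428 and 630, and with only the 4 LPS libraries 0 and 0. The interaction term passed in 0 genes with edgeR, and in 3 with no filter, 113 with DESeq2 and 103 with DESeq2 without independent filtering. With each library left out in turn the higher count ran from 1 to 226 and the lower count from 0 to 600, lowest without a KO library with LPS and highest without WT LPS replicate 1. All 96 genes kept their direction under every alternative.

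Uncalled named genes changed sign in some fits. With each library left out in turn, the log2 difference ran from -0.93 (without KO LPS replicate 2) to 0.24 (without WT LPS replicate 1) for Ccl5, with 0.12 without KO LPS replicate 1. It ran from -0.83 to 0.43 for Cd14, from -0.15 to 1.56 for Gpnmb, from -0.78 to 0.63 for Id2, from -0.35 to 1.11 for Cd274 (-0.22 without WT LPS replicate 2) and from -0.0077 to 0.86 for Irf7. It ran from -0.27 (without WT LPS replicate 2) to 1.64 for Il1rn, from -1.16 to 0.62 for St8sia4 and from -0.87 to 0.88 for Vegfa. The interferon-stimulated median ran from -0.52 to 0.27 and the type 1 dendritic cell median from -0.11 to 1.04. The cause was not tested.

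With the replicate number as a block, 5 genes were higher and 3 lower, and Id2 was at -0.014. The deviations of same-numbered libraries from their group means correlated with -0.599 between genotypes with LPS, 0.166 between genotypes at steady state, 0.113 between conditions in KO and 0.260 in WT, and the labels tie no number to a shared mouse, batch or day. With the KO LPS numbers crossed, an alternative chosen after seeing the data, 83 genes were higher and 190 lower.

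With 2 libraries per group and a spread within genotypes as wide as that between them, most differences could not be told from the spread. For genes with a KO or WT group at 0, list medians were also taken at the floor of 3 reads per group. The semaphorin median moved from -0.47 to -0.54 and the median of type 2 and monocyte-derived dendritic cells from 1.02 to 1.04, and those of the lectin and scavenger receptors stayed at 1.11 and 0.88.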
